A study of Mus musculus with 12 samples.

Results

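Polyamines are small positively charged molecules that bind nucleic acids and are needed for growth and translation. Ornithine decarboxylase makes putrescine from ornithine, and aminopropyl groups taken from decarboxylated S-adenosylmethionine then turn putrescine into spermidine and spermidine into spermine. The prostate is known for very high polyamine synthesis, since its secretory cells release spermine into the seminal fluid. The genes described here are 10 genes of this pathway, picked by name with earlier results of these data known, by a rule that uses no measured value. Odc1 encodes ornithine decarboxylase, Azin1 encodes the antizyme inhibitor, and Oaz1 and Oaz2 encode antizymes, which bind the enzyme and send it to the proteasome. Amd1 encodes S-adenosylmethionine decarboxylase, Srm spermidine synthase and Sms spermine synthase. Sat1 encodes the acetyltransferase that starts polyamine breakdown and export, Smox the oxidase of spermine, and Paox the oxidase of acetylated polyamines. All 10 were found among the 48795 gene identifiers of the count table, and all 10 passed the filter on low counts, which left 15270 genes for testing. In GENCODE M21 on GRCm38 all are protein-coding genes, with Odc1 at chr12:17544794-17551505 (plus strand), Azin1 at chr15:38487427-38519266 (minus strand), Oaz1 at chr10:80826656-80829290 (plus strand) and Oaz2 at chr9:65668001-65690300 (plus strand). The synthesis enzymes are Amd1 at chr10:40287458-40302186 (minus strand), Srm at chr4:148591503-148594993 (plus strand) and Sms at chrX:157443855-157492287 (minus strand), and those of breakdown Sat1 at chrX:155213132-155216449 (minus strand), Smox at chr2:131491496-131525922 (plus strand) and Paox at chr7:140115799-140137224 (plus strand).

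The study measured RNA in 12 libraries of mouse prostate cells described as those of the luminal layer, the secretory side of the epithelium. The donors were C57BL/6 animals, wild type and 6 to 8 weeks old. Cells bearing Ter119 (erythroid), CD45 (blood) or CD31 (vessels) had been gated out, and the rest were split by LY6D (LY6D+ or LY6D-) and, within each, by SCA1, the product of Ly6a (SCA1low, SCA1int or SCA1high). Each of the 6 populations had 2 libraries, made from 10 to 20 ng of total RNA with a QuantSeq kit that reads the 3' ends of polyadenylated RNA. The series text calls the replicates biological, but the labels do not say whether they were separate mice or pools, so each p-value reflects how much these particular libraries vary, which may be partly technical.

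The libraries held 8436185 to 20022077 counts. Ly6d stood at 37.0 to 397 CPM (counts brought to equal library size with edgeR's TMM scaling) in LY6D+ libraries and at 0.433 to 3.85 CPM in LY6D- libraries. Ly6a stood at 181 to 593 CPM in SCA1high libraries, 44.9 to 148 CPM in SCA1int libraries and 3.37 to 68.8 CPM in SCA1low libraries, so SCA1int and SCA1low overlapped. Correlation between the 2 libraries of a population ran from 0.578 to 0.685 over all 15270 tested genes, scarce ones included. By the same measure the closest library came from a different population for all 12. The biological coefficient of variation was 1.28. Pecam1, the gene of CD31, ran from 2.43 to 573 CPM although CD31 was gated out, while Ptprc, the gene of CD45, reached 0.216 CPM at most and was at 0 in 8 libraries. The 6 leukocyte genes listed, among them Cd52 at up to 204 CPM and Cd74 at up to 31.0 CPM, summed to 11.2 to 210.3 CPM in LY6D+ libraries and 0.235 to 84.9 CPM in LY6D- libraries. Although Ter119 was gated out, the 3 erythroid genes listed summed to 3.29 to 697 CPM. The 6 seminal vesicle genes listed summed to 272 to 14825 CPM, with the highest sum in a LY6D+ SCA1low library. Replicate 2 of LY6D+ SCA1high and replicate 2 of LY6D- SCA1low had been doubted in an earlier analysis of these data, and values without both are given below where they bear on a result.

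The promoters of the enzymes usually named as rate-limiting, Odc1 for putrescine, Amd1 for the aminopropyl donor and Sat1 for breakdown, are shown as the regulatory DNA next to the values that follow. They are RefSeq sequences of build GRCm38.p6, read 5' to 3' on the gene's strand and ending before the start of the gene: chr12:17544623-17544793 on the plus strand for Odc1, chr10:40302189-40302438 on the minus strand for Amd1 and chrX:155216450-155216699 on the minus strand for Sat1. Capitals mark every match, on either strand, to 5 searched motifs. The GC box was searched as GGGCGG. For the E-box the letters were CACGTG. The half-site of the androgen receptor was searched as AGAACA. The TATA box was taken as TATAA. The letters CCAAT were searched as such.
Odc1: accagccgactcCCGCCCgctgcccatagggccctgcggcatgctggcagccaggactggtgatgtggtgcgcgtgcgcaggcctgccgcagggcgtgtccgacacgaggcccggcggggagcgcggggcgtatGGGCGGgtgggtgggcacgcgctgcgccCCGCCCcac
Amd1: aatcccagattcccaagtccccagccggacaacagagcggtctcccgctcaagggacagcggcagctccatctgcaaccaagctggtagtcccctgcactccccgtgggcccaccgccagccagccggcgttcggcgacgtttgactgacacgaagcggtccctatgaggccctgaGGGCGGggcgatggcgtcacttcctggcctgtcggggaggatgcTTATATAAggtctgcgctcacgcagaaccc
Sat1: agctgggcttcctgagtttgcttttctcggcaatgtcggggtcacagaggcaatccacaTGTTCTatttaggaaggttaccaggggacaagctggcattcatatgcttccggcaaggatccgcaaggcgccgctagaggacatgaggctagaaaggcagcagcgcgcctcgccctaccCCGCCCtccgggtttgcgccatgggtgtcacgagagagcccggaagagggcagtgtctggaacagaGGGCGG
The Odc1 sequence has 171 bases because it stops before the start of the gene in GENCODE, which lies upstream of the RefSeq start, and the other 2 have 250. It held 3 GC boxes and no other motif. The Amd1 window held 1 GC box and 2 overlapping TATA matches, 1 on each strand, close to the start. The Sat1 window held 2 GC boxes and 1 half-site on the reverse strand. Over the 250 bases before the start, 10 windows matched 8 of the 10 genes, since Paox and Sms had 2 starts each. Azin1 and Srm were not matched. The GC box was present in 8 of these 10 windows and in 32.7% of 32851 promoters, and the median base composition of all windows was 52.4% G and C, against 80.0% in Odc1, 64.4% in Amd1 and 59.6% in Sat1. The half-site was in the windows of Oaz2 and Sat1 and in 16.1% of all promoters. The E-box was in a window of Sms and in 6.02% of all promoters, the CCAAT motif in those of Oaz1 and Sms and in 33.8%, and the TATA box in that of Amd1 and in 22.8%. A match describes letters only.

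The 10 genes fell into abundant and scarce transcripts, on the CPM scale of 3' tags, which counts transcript ends and is not divided by length. Amd1 had the highest median over the 12 libraries, 901 CPM, followed by Sat1 (569 CPM), Oaz1 (475 CPM), Odc1 (229.6 CPM), Azin1 (129 CPM) and Oaz2 (101 CPM). Paox (22.4 CPM), Sms (18.7 CPM), Smox (14.9 CPM) and Srm (2.19 CPM) were far lower. Together they made up 0.161% to 0.36% of a library's counts. Among all tested genes, 0.825% had a higher mean level than Amd1 and 58.6% a higher one than Srm.

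**Figure D1:**
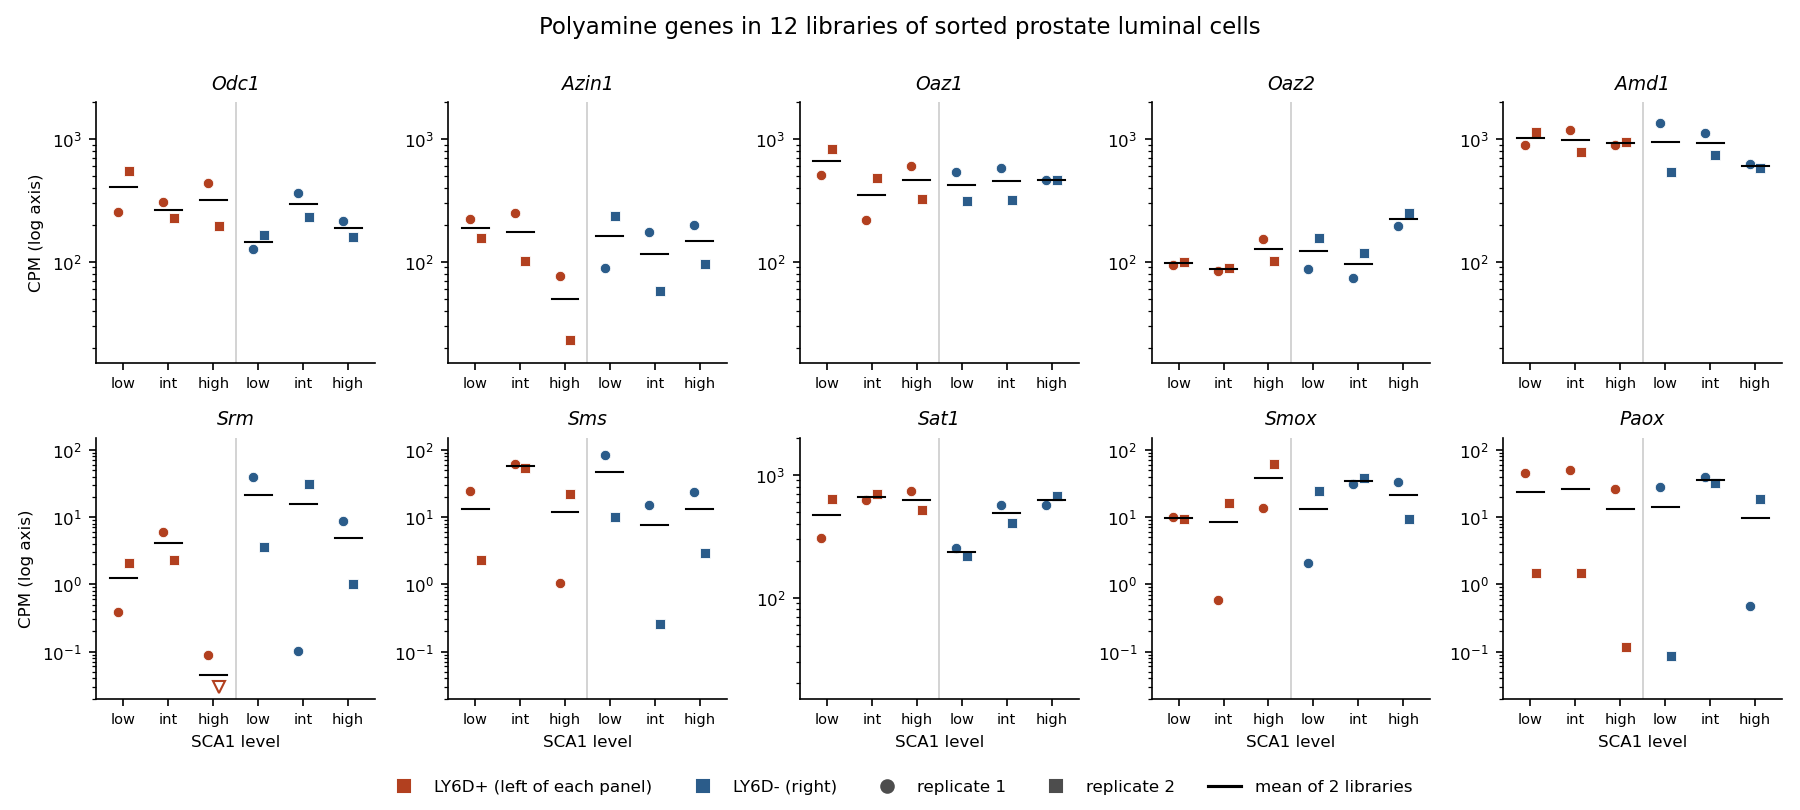
Level of each of the 10 polyamine genes in CPM (log axis) in the 12 libraries, LY6D+ populations left and LY6D- populations right, each ordered from SCA1low to SCA1high; circles are replicate 1, squares replicate 2, bars the mean of both, and the open triangle marks 0 counts (drawn at the foot of the axis). Odc1, Azin1, Oaz1, Oaz2, Amd1 and Sat1 were at 22.9 CPM or more in every library, while Srm, Sms, Smox and Paox had replicates far apart in most populations.

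None of the 10 genes was called in any of 11 comparisons at an adjusted p below 0.05 (edgeR, quasi-likelihood, Benjamini-Hochberg over 15270 genes). The test of any difference among the 6 populations called 1.54% of all genes. There 1 of the 10 genes, Sat1, had an unadjusted p below 0.05, against 18.5% of all genes, and its adjusted p was 0.235 (edgeR). In LY6D+ against LY6D- cells, averaged over SCA1 levels, 0 of 10 were called against 2.48% of all genes, and 2 of 10 had an unadjusted p below 0.05 against 20.4%. In SCA1high against SCA1low cells, averaged over LY6D, 0 of 10 were called against 1.21%, and 1 of 10 had an unadjusted p below 0.05 against 12.1%. In the other comparisons the number with an unadjusted p below 0.05 was 2 at SCA1low (12% of all genes), 1 within LY6D+ cells (8.61%), 1 within LY6D- cells (6.65%) and 1 for SCA1int against SCA1low (9.65%). It was 0 at SCA1high (11.7%), at SCA1int (6.17%), for SCA1high against SCA1int (8.83%) and for the interaction (7.6%). DESeq2 called 1 gene in 1 comparison, Srm, and limma called none. The median log2 fold change of the 10 genes was 0.16 for LY6D (6 above 0, 4 below), where all tested genes had a median of 0.03, and -0.30 for SCA1 (4 above 0, 6 below), where all tested genes had a median of 0.15.

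**Figure D2:**
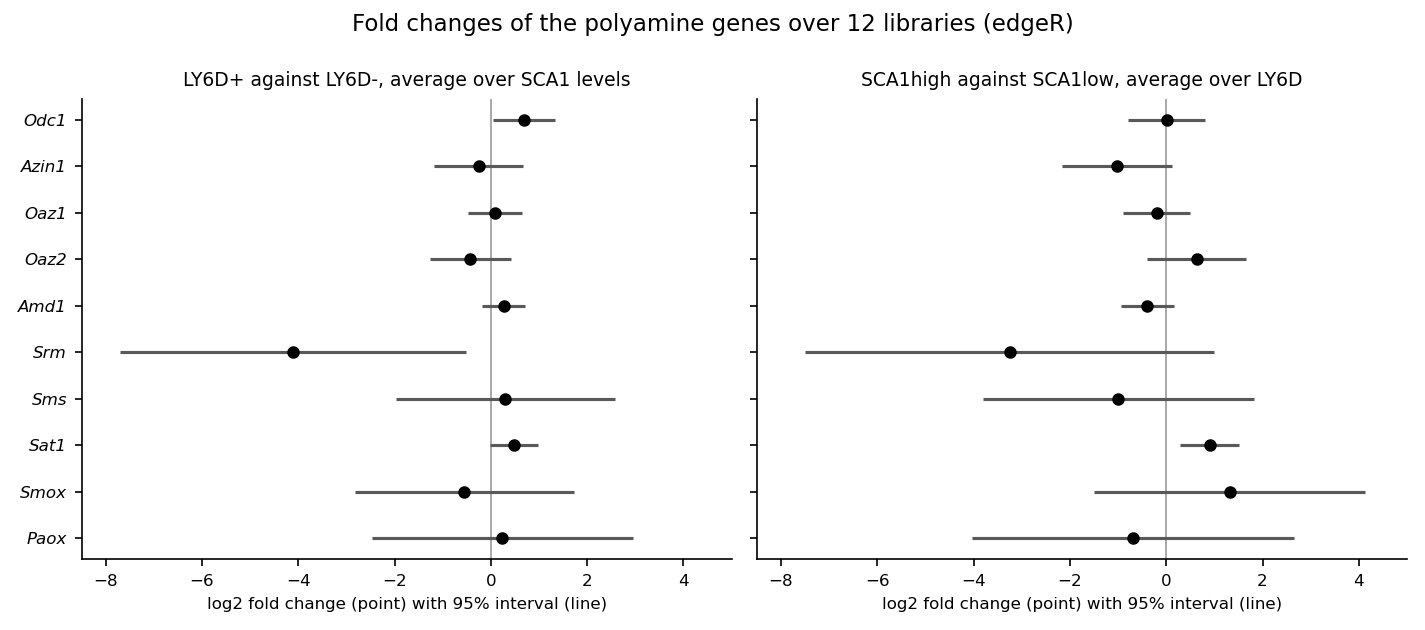
Log2 fold change (points, edgeR) with its 95% interval (lines) of each polyamine gene for LY6D+ against LY6D- (left) and SCA1high against SCA1low (right), over 12 libraries. On the right the intervals of the 6 abundant genes run from that of Amd1 (-0.94 to 0.16) to the wider one of Azin1 (-2.17 to 0.11), and those of Srm, Sms, Smox and Paox are wider still (-7.50 to 0.99 for Srm).

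Odc1, which commits ornithine to the pathway, had its highest mean in LY6D+ SCA1low cells and its lowest in LY6D- SCA1low cells. In LY6D+ cells, replicates 1 and 2 had 254 and 554 CPM at SCA1low, 306 and 226 CPM at SCA1int, and 437 and 196 CPM at SCA1high. In LY6D- cells they had 127 and 164 CPM at SCA1low, 362 and 233 CPM at SCA1int, and 215 and 160.4 CPM at SCA1high. The LY6D- SCA1high and LY6D- SCA1low libraries all lay below those of LY6D+ SCA1int, LY6D+ SCA1low and LY6D- SCA1int, while 1 LY6D+ SCA1high library lay among them. Both LY6D+ libraries lay above both LY6D- libraries at SCA1low, and the groups overlapped at SCA1int and SCA1high. Averaged over SCA1 levels, Odc1 was at 329 ± 139 CPM in LY6D+ libraries and 210.3 ± 83.9 CPM in LY6D- libraries (SD, n = 6 each), a log2 fold change of 0.69 ± 0.32 (SE, 95% interval 0.04 to 1.34, edgeR adjusted p = 0.213). It did not pass the threshold. At SCA1low the log2 fold change was 1.47 ± 0.56 (95% interval 0.33 to 2.62, edgeR adjusted p = 0.408), and at SCA1int it was -0.16 ± 0.55. At SCA1low 0.472% of all genes were called, and 22.8% had both LY6D+ libraries above both LY6D- libraries, as Odc1 and Sat1 had. The reverse held for Srm and for 20.5% of all genes. Without both doubted libraries the averaged value was 0.92 (adjusted p = 0.182), and without LY6D+ SCA1low replicate 2 it was 0.46 (adjusted p = 0.625).

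Along SCA1 the Odc1 values overlapped. SCA1high libraries ranged from 160.4 to 437 CPM and SCA1low libraries from 127 to 554 CPM, with a log2 fold change of 0.01 ± 0.39 (95% interval -0.78 to 0.80). That interval allows a change of either sign. Within LY6D+ cells the SCA1high to SCA1low value was -0.35 ± 0.55, and within LY6D- cells it was 0.37 ± 0.55, with an interaction of -0.72 ± 0.78 (edgeR adjusted p = 0.84, where 0.0393% of all genes were called). The 3 genes whose log2 CPM followed Odc1 most closely over the 12 libraries, among 2389 genes of at least moderate level, were Hnrnpdl (r = 0.90), Cnbp (r = 0.85) and Reep5 (r = 0.84). These correlations share the 12 libraries, their depth and their scaling, and are a description. The snoRNA Gm22748 lies within Odc1 (chr12:17544794-17551505, plus strand) and had 1251 counts of its own over all libraries, against 51147 for Odc1.

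The markers of basal cells and of stroma moved with LY6D. All 7 of 7 basal genes listed were detected in every library, and their summed level was 1667 to 4204 CPM in LY6D+ libraries and 38.3 to 1580.3 CPM in LY6D- libraries, without overlap. The 7 genes of stroma and smooth muscle, led by Dcn, summed to 789 to 1269 CPM in LY6D+ libraries and 244 to 756 CPM in LY6D- libraries, also without overlap, and of these Myh11 and Tagln were each at 0 in 1 library. At each SCA1 level the 10 secretory luminal and 8 endothelial genes listed summed lower in LY6D+ than in LY6D- libraries, without overlap. Secretory sums were 1650 to 2160 against 3061 to 5112 CPM at SCA1high and 2156 to 3261 against 34016 to 40410 CPM at SCA1int. At SCA1low they were 19534 to 28548 against 59655 to 103150 CPM. Endothelial sums were 163 to 255 against 2816 to 2846 CPM at SCA1high and 24.4 to 165 against 774 to 1021 CPM at SCA1int. At SCA1low they were 45.7 to 131 against 196 to 567 CPM. The 4 pan luminal genes listed, Krt8, Krt18, Cd24a and Epcam, summed to 311 to 766 CPM in LY6D+ libraries and 334 to 1069 CPM in LY6D- libraries. In LY6D+ SCA1high libraries they summed to 402 to 558 CPM, where basal sums were 3835 to 4204 CPM. In bulk samples, fewer cells of a type and less RNA per cell cannot be told apart. The part of basal, stromal, secretory and endothelial transcripts in the Odc1 values was not tested.

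Among the regulators of ornithine decarboxylase, Azin1 varied most. In LY6D+ cells, replicates 1 and 2 of Azin1 had 222 and 155 CPM at SCA1low, 249 and 102 CPM at SCA1int, and 76.2 and 22.9 CPM at SCA1high. In LY6D- cells they had 89.5 and 236 CPM at SCA1low, 173 and 58.0 CPM at SCA1int, and 200.1 and 95.6 CPM at SCA1high. LY6D+ SCA1high cells thus had the lowest mean, 49.6 ± 37.7 CPM, and the lowest single library, and they lay below both LY6D+ SCA1low libraries, without overlap. The log2 fold change of SCA1high against SCA1low within LY6D+ cells was -1.93 ± 0.81 (95% interval -3.58 to -0.27, edgeR adjusted p = 0.578). In that comparison 0.327% of all genes were called. Both SCA1high libraries lay below both SCA1low libraries for Azin1, for Srm and for 21.3% of all genes, and above them for Oaz2, for Smox and for 13.1%. Within LY6D- cells the value was -0.14 ± 0.78, and the interaction was -1.79 ± 1.11 (edgeR adjusted p = 0.688). Without both doubted libraries, 1 of them the lowest library of Azin1, the value within LY6D+ cells was -1.30 (adjusted p = 0.796), and without LY6D+ SCA1high replicate 1 it was -3.04 (adjusted p = 0.316). For LY6D, Azin1 gave -0.25 ± 0.45 (95% interval -1.18 to 0.67). Secretory sums were 1650 to 2160 CPM in LY6D+ SCA1high and 19534 to 28548 CPM in LY6D+ SCA1low libraries. Seminal vesicle (588 to 757 against 3128 to 14825 CPM), pan luminal and leukocyte sums were also lower at SCA1high. Basal (3835 to 4204 against 1667 to 2222 CPM) and endothelial sums (163 to 255 against 45.7 to 131 CPM) were higher. None of these overlapped, and their part in the Azin1 values was not tested.

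Oaz1, the more abundant antizyme gene, ranged from 219 to 827 CPM. Its mean was highest in LY6D+ SCA1low cells, 666 ± 227 CPM, where both libraries lay above those of the next population, LY6D- SCA1high, at 465 ± 0.827 CPM (SD, n = 2 each). The lower LY6D+ SCA1low library, 506 CPM, lay below the higher library of LY6D+ SCA1high (602 CPM), LY6D- SCA1int (586 CPM) and LY6D- SCA1low (541 CPM). The other neighbours in the order of means overlapped. The log2 fold change was 0.09 ± 0.27 for LY6D+ against LY6D- (95% interval -0.47 to 0.65) and -0.20 ± 0.34 for SCA1high against SCA1low (95% interval -0.89 to 0.49).

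Oaz2, which encodes a second antizyme, was at 94.4 and 100.04 CPM in LY6D+ SCA1low, 84.6 and 88.6 CPM in LY6D+ SCA1int, and 153 and 101 CPM in LY6D+ SCA1high libraries. In LY6D- cells it was at 87.1 and 157 CPM at SCA1low, 73.4 and 118 CPM at SCA1int, and 196 and 251 CPM at SCA1high. LY6D- SCA1high libraries were the highest of all 12, and the other populations overlapped in a chain. For LY6D, Oaz2 gave -0.43 ± 0.41 (95% interval -1.26 to 0.41), and for SCA1high against SCA1low 0.63 ± 0.50 (95% interval -0.39 to 1.66, edgeR adjusted p = 0.624). Against SCA1int, SCA1high cells had a log2 fold change of 0.89 ± 0.50 (edgeR adjusted p = 0.645), in a comparison where 0.138% of all genes were called.

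Within a library, Odc1 and its regulators can be set against each other without any scaling between libraries. The count ratio of Odc1 to Oaz1 was 0.468 to 1.40 in LY6D+ libraries and 0.235 to 0.725 in LY6D- libraries. The ratio of Azin1 to Oaz1 was 0.0711 and 0.127 in LY6D+ SCA1high libraries, the lowest of the 12, and from 0.165 to 1.14 in the others. The ratio of Odc1 to Amd1 lay between 0.206 and 0.487 in 11 libraries and was 0.0938 in LY6D- SCA1low replicate 1. These ratios were not tested.

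**Figure D3:**
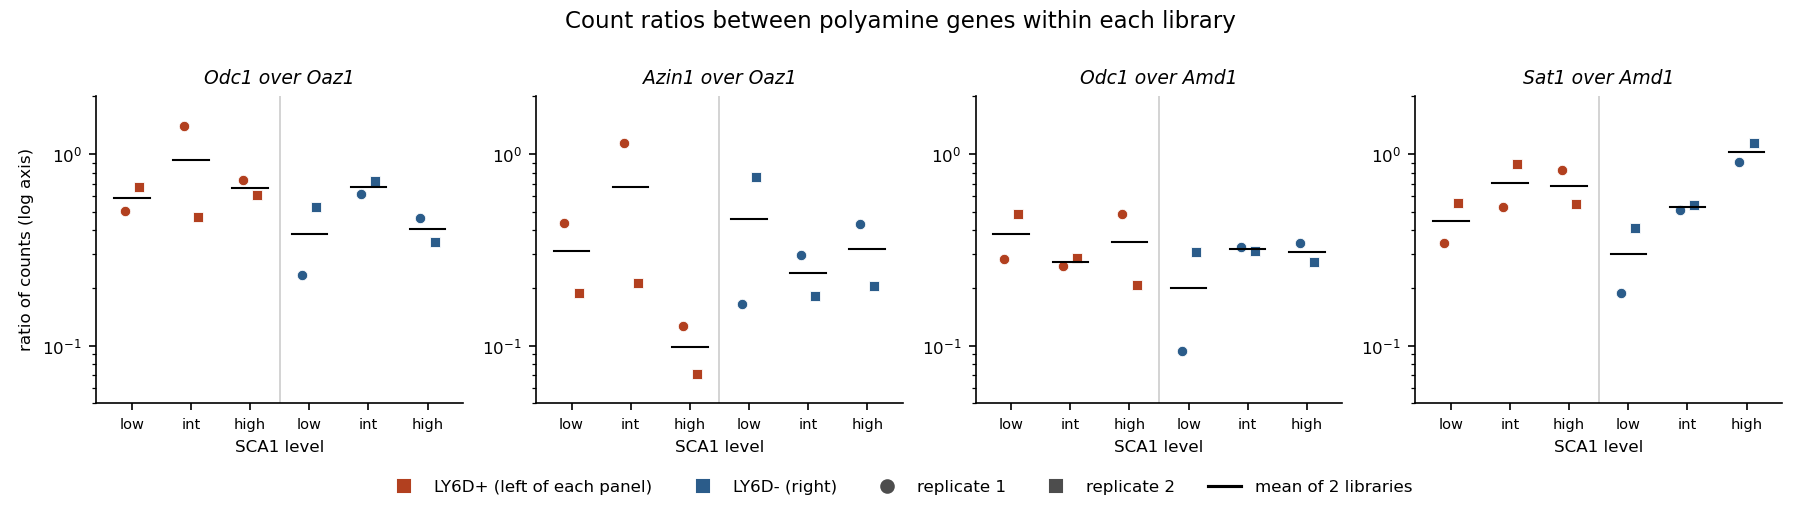
Ratio of counts between pairs of polyamine genes within each library (log axis), LY6D+ populations left and LY6D- populations right, ordered from SCA1low to SCA1high; circles are replicate 1, squares replicate 2, bars the mean of both. Azin1 over Oaz1 was lowest in both LY6D+ SCA1high libraries (0.0711 and 0.127), and Sat1 over Amd1 was highest in both LY6D- SCA1high libraries (0.908 and 1.15).

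Amd1, which supplies the aminopropyl donor, was the most abundant of the 10 genes and had the narrowest range over libraries. In LY6D+ cells, replicates 1 and 2 had 902 and 1138 CPM at SCA1low, 1177 and 787 CPM at SCA1int, and 901 and 949 CPM at SCA1high. In LY6D- cells they had 1354 and 535 CPM at SCA1low, 1112 and 746 CPM at SCA1int, and 629.7 and 584 CPM at SCA1high. The highest library was 2.53 times the lowest. At SCA1high both LY6D+ libraries, at 925 ± 34.1 CPM, lay above both LY6D- libraries, at 607 ± 32.4 CPM, the lowest mean of the 6 populations (SD, n = 2 each). Amd1 gave 0.27 ± 0.22 for LY6D (95% interval -0.18 to 0.71) and -0.39 ± 0.27 for SCA1high against SCA1low (95% interval -0.94 to 0.16, edgeR adjusted p = 0.555). The LY6D value was 0.51 without LY6D- SCA1low replicate 1 and 0.0412 without LY6D- SCA1low replicate 2. At SCA1high the LY6D value was 0.61 ± 0.38 (edgeR adjusted p = 0.504). At SCA1high 0.262% of all genes were called, 15.3% had both LY6D+ libraries higher, as Amd1 did, and 21.6% had both lower, as Azin1, Oaz2 and Srm did.

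Which copy of Amd1 was read is uncertain. The last 300 bases of its transcript matched Amd2, a near-identical gene, without a mismatch over 294 bases. The deposited count of Amd2 was 86.5% to 97.4% of that of Amd1 in each of the 12 libraries, 152816 against 162090 in all. The values of Amd1 therefore cannot be told apart from those of Amd2, which gave 0.28 ± 0.22 for LY6D and -0.38 ± 0.27 for SCA1high against SCA1low. The count ratios to Amd1 share this limit, and how reads matching both genes were counted is not stated.

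The LY6D- SCA1high libraries, which had the highest Oaz2 and among the lowest Amd1, also had the highest level of endothelial markers. All 8 of 8 endothelial genes were detected there, and their summed level was 2816 to 2846 CPM, against 24.4 to 1021 CPM in the other populations. Their part in these values was not tested.

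Srm and Sms, which make spermidine and spermine, were scarce. Srm had 0.383 and 2.10 CPM in LY6D+ SCA1low, 6.04 and 2.28 CPM in LY6D+ SCA1int, and 0.0899 and 0 CPM in LY6D+ SCA1high libraries, the last with 2 counts and 0 counts. In LY6D- cells it had 39.3 and 3.55 CPM at SCA1low, 0.103 and 30.6 CPM at SCA1int, and 8.76 and 1.02 CPM at SCA1high. The 3 highest values were in LY6D- libraries, but each LY6D- population also held a low library, and the groups overlapped. A count of 0 in LY6D+ SCA1high replicate 2, a library of 8436185 counts, allows up to 0.353 CPM (3 counts, counting error only). Averaged over SCA1 levels, Srm stood at 1.82 ± 2.30 CPM in LY6D+ libraries and 13.9 ± 16.8 CPM in LY6D- libraries (SD, n = 6 each), with a log2 fold change of -4.11 ± 1.75 (95% interval -7.70 to -0.52, edgeR adjusted p = 0.174). DESeq2 gave -4.34 ± 1.26 and called it (adjusted p = 0.00663), as it called 16% of the genes to which it gave an adjusted p, and limma-trend on log2 of the deposited normalised values plus 1 gave -1.67 (adjusted p = 0.491). Leaving out LY6D- SCA1int replicate 2 alone brought the edgeR value to -1.80 (adjusted p = 0.738), and without both doubted libraries it was -4.15 (adjusted p = 0.359). For SCA1high against SCA1low the value was -3.25 ± 2.07 (95% interval -7.50 to 0.99).

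Sms ranged from 0.257 to 83.2 CPM, and its steadiest population was LY6D+ SCA1int at 62.1 and 53.0 CPM. In LY6D- SCA1int cells the replicates stood at 15.0 and 0.257 CPM, so both LY6D+ libraries lay above both LY6D- libraries at that level. That held for Sms and Sat1 among the 10 genes and for 19.4% of all genes, and 0.203% of all genes were called there. The log2 fold change of Sms at SCA1int was 2.91 ± 2.06 (95% interval -1.31 to 7.14, edgeR adjusted p = 0.697). Averaged, it was 0.30 ± 1.11 for LY6D and -0.99 ± 1.37 for SCA1high against SCA1low.

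Sat1, which starts polyamine breakdown, came nearest to the threshold along SCA1. In LY6D+ cells, replicates 1 and 2 had 308 and 631 CPM at SCA1low, 623 and 699 CPM at SCA1int, and 738 and 518 CPM at SCA1high. In LY6D- cells they had 254 and 219 CPM at SCA1low, 566 and 406 CPM at SCA1int, and 572 and 669 CPM at SCA1high. LY6D- SCA1low libraries were the lowest of all 12, while 1 LY6D+ SCA1low library lay among the SCA1high values. Averaged over LY6D, Sat1 was at 624 ± 98.6 CPM in SCA1high libraries and 353 ± 189 CPM in SCA1low libraries (SD, n = 4 each), a log2 fold change of 0.90 ± 0.30 (95% interval 0.29 to 1.51, edgeR adjusted p = 0.199). SCA1int against SCA1low gave 0.77 ± 0.30 (edgeR adjusted p = 0.494, with 0.334% of all genes called), and SCA1high against SCA1int gave 0.14 ± 0.30 (95% interval -0.47 to 0.74).

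The Sat1 contrast within LY6D- cells was 1.39 ± 0.43 (95% interval 0.52 to 2.26, edgeR adjusted p = 0.213), and within LY6D+ cells it was 0.42 ± 0.42 (95% interval -0.44 to 1.28). The difference between the 2 did not pass the test, with an interaction of -0.97 ± 0.59 (edgeR adjusted p = 0.68). Within LY6D- cells 0.635% of all genes were called, and 22.7% had both SCA1high libraries above both SCA1low libraries, as Sat1 and Oaz2 had. For LY6D, Sat1 gave 0.48 ± 0.24 (95% interval -0.01 to 0.98), and at SCA1low 0.99 ± 0.42 (edgeR adjusted p = 0.408), with no overlap there. Leaving out both doubted libraries gave 0.99 (adjusted p = 0.221) for the averaged SCA1 comparison and 1.31 (adjusted p = 0.378) within LY6D- cells.

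The Sat1 result depended on the scaling. With library size as the only scaling, Sat1 was called, at 1.41 ± 0.29 averaged over LY6D (adjusted p = 0.00663, 1.71% of all genes called) and at 1.92 ± 0.42 within LY6D- cells (adjusted p = 0.0148, 0.891% called). With that scaling the median of all genes was 0.63 in the averaged comparison, against 0.15 with TMM. With DESeq2 the averaged value was 0.62 ± 0.41 (adjusted p = 0.366). Ribosomal RNA features held 6.97% to 16.8% of counts in SCA1high libraries and 19.5% to 24.4% in SCA1low libraries, and secretory luminal markers, all 10 of 10 detected, summed to 1650.4 to 5112 CPM in SCA1high libraries and 19534 to 103150 CPM in SCA1low libraries. Neither range overlapped. Within LY6D- cells endothelial sums were 2816 to 2846 CPM at SCA1high and 196 to 567 CPM at SCA1low. Basal sums were 349 to 359 against 38.3 to 145 CPM there, and stromal sums 460 to 593 against 244 to 311 CPM. Lower at SCA1high were pan luminal sums, 334 to 436 against 527 to 1069 CPM, and leukocyte sums, 0.235 to 11.1 against 15.6 to 84.9 CPM. None of these overlapped, and the part of all these transcripts in the Sat1 values was not tested. Leaving the ribosomal features out gave 0.89 (adjusted p = 0.193).

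The ratio of Sat1 to Amd1 counts within a library was 0.545 to 1.15 in SCA1high libraries and 0.188 to 0.555 in SCA1low libraries. It sets the RNA of a breakdown gene against that of a donor synthesis gene, whose counts cannot be told apart from those of Amd2. The ranges met at 1 LY6D+ library each. Sat1 exceeded Odc1 in every library, with a ratio of 1.14 to 4.17. Neither ratio needs a scaling between libraries, and neither was tested.

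The oxidase genes were scarce and uneven. Paox had 44.9 and 1.48 CPM in replicates 1 and 2 of LY6D+ SCA1low, 49.999 and 1.48 CPM in LY6D+ SCA1int, and 26.3 and 0.118 CPM in LY6D+ SCA1high. In LY6D- cells it had 28.0 and 0.0866 CPM at SCA1low, 39.0 and 32.2 CPM at SCA1int, and 0.469 and 18.6 CPM at SCA1high. Paox was thus at 1.48 CPM or less in 5 libraries, 1 in each of 5 populations, and at 18.6 CPM or more in the other 7, with replicate 1 the higher in 5 of 6 populations. Its log2 fold change was 0.24 ± 1.33 for LY6D (95% interval -2.48 to 2.96) and -0.68 ± 1.63 for SCA1high against SCA1low (95% interval -4.03 to 2.66). Part of the last 300 bases of Paox, 51 to 137 bases, matched 14 other genes at 95% identity or more, and Echs1 overlaps it on the opposite strand, so some of its reads may be uncertain.

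Smox ranged from 0.593 to 62.2 CPM. Its replicates differed least in LY6D+ SCA1low (10.1 and 9.49 CPM) and LY6D- SCA1int (30.8 and 38.7 CPM) cells. At SCA1int both LY6D+ libraries, 0.593 and 16.4 CPM, lay below both LY6D- libraries, as did 17.3% of all genes. The log2 fold change there was -2.03 ± 1.98 (edgeR adjusted p = 0.801). Averaged, it was -0.55 ± 1.11 for LY6D and 1.32 ± 1.37 for SCA1high against SCA1low (95% interval -1.50 to 4.13).

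The distance between replicates sets what these comparisons can show. Averaged over the 6 populations, replicates differed by 0.438 log2 units for Sat1, 0.439 for Oaz2, 0.503 for Amd1, 0.691 for Odc1, 0.736 for Oaz1 and 1.26 for Azin1. The median of these 6 was 0.597, against 0.652 over 1704 tested genes of a mean log2 CPM of 6 or more, which all 6 had. For Smox, Srm, Sms and Paox the distance was 2.11, 3.15, 3.25 and 4.995 log2 units, against a median of 2.65 over 7548 genes with a mean log2 CPM of 0 to 5. Only 2.17% of all tested genes had a larger distance than Paox.

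**Figure D4:**
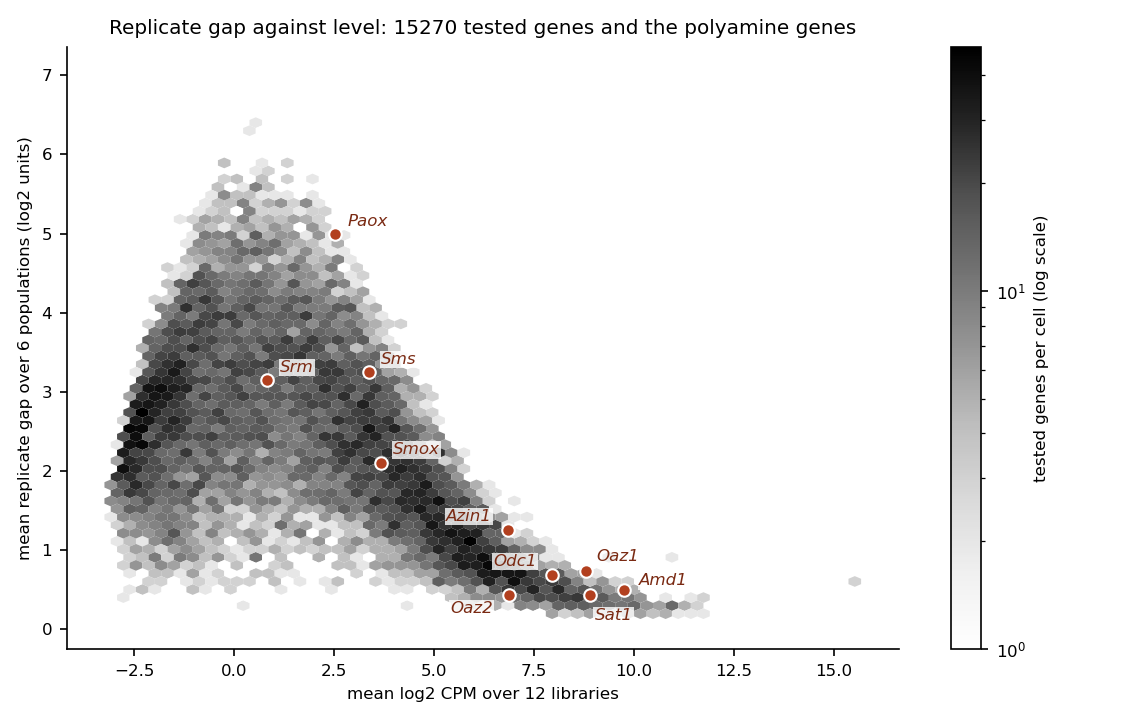
Mean distance between the 2 replicates over 6 populations (log2 units) against mean log2 CPM, for 15270 tested genes (grey hexagons, darker for more genes) and the 10 polyamine genes (labelled points). The 6 abundant genes lie at 0.438 to 1.26 log2 units, and Paox, at 4.995, lies near the upper edge for its level.

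Of 44 other genes of the pathway and its surroundings, 31 were tested. In LY6D+ against LY6D- cells 2 rose and 0 fell, with 1.27% of all genes called higher and 1.21% lower, and 3 of the 31 had an unadjusted p below 0.05, against 20.4% of all genes. Slc7a1, a transporter of arginine and other cationic amino acids, rose by a log2 fold change of 1.53 ± 0.34 (edgeR adjusted p = 0.0111). In LY6D+ libraries it ranged from 147 to 446 CPM and in LY6D- libraries from 50.3 to 293 CPM, and the groups overlapped, since both LY6D- SCA1low libraries exceeded LY6D+ SCA1high replicate 1 and 1 of them also exceeded LY6D+ SCA1int replicate 1. Without LY6D+ SCA1high replicate 2 the value was 1.21 (adjusted p = 0.0633), and without both doubted libraries 1.15 (adjusted p = 0.0961). Oat, the mitochondrial aminotransferase that links ornithine to proline and glutamate, rose by 1.24 ± 0.35 (edgeR adjusted p = 0.0493), with 165 to 437 CPM in LY6D+ libraries and 85.3 to 226 CPM in LY6D- libraries. Its call was lost in 10 of 20 alternatives, with 0.99 the lowest value. In 8 of these a single library was left out: in LY6D+ cells either SCA1low replicate, SCA1int replicate 1 or SCA1high replicate 1, and in LY6D- cells SCA1low replicate 2, SCA1int replicate 2 or either SCA1high replicate. Basal, stromal, secretory and endothelial markers moved with LY6D as given above for Odc1, and their part in these 2 results was not tested.

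In SCA1high against SCA1low cells edgeR called 0 of these 31 genes, with 0.432% of all genes called higher and 0.779% lower, and 4 of the 31 had an unadjusted p below 0.05, against 12.1% of all genes.

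**Figure D5:**
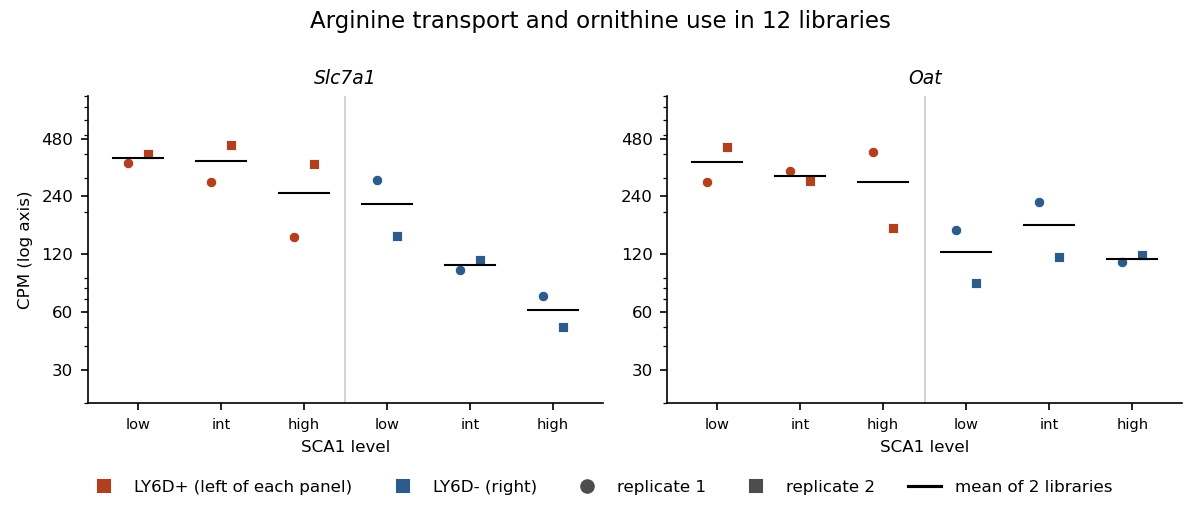
Level in CPM (log axis) of the 2 genes around the pathway called for LY6D, in the 12 libraries, LY6D+ populations left and LY6D- populations right, ordered from SCA1low to SCA1high; circles are replicate 1, squares replicate 2, bars the mean of both. Slc7a1 and Oat were higher in LY6D+ cells on average (147 to 446 and 165 to 437 CPM) than in LY6D- cells (50.3 to 293 and 85.3 to 226 CPM), with overlapping libraries.

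By group, Slc7a1 was the call among 5 of 11 transport genes tested, and Oat that among 5 of 6 genes of ornithine supply and use. No gene was called among 4 of 7 related enzymes and paralogues, 8 of 9 genes of S-adenosylmethionine supply and salvage, 3 of 4 of hypusine formation, in which spermidine modifies the translation factor eIF5A, or 6 of 7 of Myc and its partners. Over all 31 genes the median log2 fold change was 0.39 for LY6D and -0.30 for SCA1high against SCA1low. All tested genes had medians of 0.03 and 0.15. The medians of the 31 include genes with counts near 0, whose values are loosely estimated, and they were not tested.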

How the data were processed

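RNA from 12 libraries was sequenced from the 3' end. The submitters' processing notes name the build mm10 and list edgeR, featureCounts, Subread, STAR 2.5.1, cutadapt 1.9.1, Picard 1.96 and SAMtools 1.3.1. Settings, annotation and strand handling: not given in the sources used here. The authors deposited raw counts per gene, which served for all main tests, and normalised signal values, deposited as a second table and used in 1 alternative. The 95% intervals of fold changes were worked out from the log2 fold change and F statistic of the edgeR fit, with a symmetric t limit. They include the spread between replicates and are approximate, most of all for genes with counts near 0. The upper limit given for a count of 0 covers counting error only. The genes were matched by Ensembl identifier, and coordinates are from GENCODE M21 on GRCm38.

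Tests used R 4.3.3 and edgeR 4.0.16 (TMM scaling, filterByExpr by population, 1 mean per population, glmQLFit and glmQLFTest), p-values adjusted by Benjamini-Hochberg across the tested genes, and a call below 0.05. SE is that of the log2 fold change, for edgeR taken as its absolute value over the square root of the F statistic. CPM are scaled by TMM factors. The procedure was run on simulated counts with a smaller spread than these libraries have (biological coefficient of variation 1.28). That run therefore does not show how well changes are found at the spread of these data. The 10 genes and the lists were chosen with earlier results of these data known. Of the other pathway genes, those called in either averaged comparison were to be named, at most 4 per list. Of the listed genes 1 is not reported here and is in no count of the lists. Amd2 is given beside Amd1 because their ends match. Likeness to Odc1 took the 3 highest Pearson correlations of log2 CPM (prior count 1) among genes of mean log2 CPM of at least 5. Near-identical 3' ends were sought with blastn 2.17.0 over 300 bases (at least 50 bases at 95% identity). Promoter motifs were sought in the 250 bases before each start.

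Alternatives were RLE size factors, library size alone, no count filter, a block for the replicate number, DESeq2 1.42.0, leaving out each library in turn, both doubted libraries left out, limma 3.58.1 (limma-trend on log2 of the deposited values plus 1), and ribosomal RNA features left out.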

Additional observations from a re-analysis of the deposited data

How the results depend on the processing

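Over 20 alternatives, the number of the 10 genes called was 0 in all 11 comparisons except in 3 cases: DESeq2 called 1 for LY6D (Srm), and library size as the only scaling called 1 (Sat1) for the averaged SCA1 comparison and 1 within LY6D- cells. DESeq2 called 2208 genes in all for LY6D and 1303 for SCA1, against 379 and 185. With RLE scaling 106 genes were called higher and 190 lower for LY6D (DESeq2 881 and 1327), against 194 and 185, and 35 and 157 for SCA1, where the median of all genes moved to -0.12. Library size alone gave 184 and 77 for SCA1, against 66 and 119. Values that changed sign were all uncalled on both sides, and the cause was not tested. For LY6D, Azin1 was 0.25 and Sms -1.13 without both doubted libraries, Oaz1 was -0.0271 with RLE and with DESeq2, and Paox was -0.0060 with RLE, -0.0062 with DESeq2 and -0.24 with limma. For SCA1, Odc1 was -0.28 with RLE and with DESeq2, -0.15 without a filter, -0.15 with limma and -0.0071 without ribosomal features, and library size alone gave 0.33 for Oaz1 and 0.14 for Amd1. Leaving out 1 library at a time, the LY6D values ran from -0.62 to 0.0936 (Azin1), -0.13 to 0.27 (Oaz1), -0.87 to 1.93 (Sms), -1.81 to 0.34 (Smox) and -1.99 to 2.60 (Paox), and the SCA1 values from -0.33 to 0.17 (Odc1), -2.96 to 0.22 (Sms) and -4.02 to 2.90 (Paox). Oat lost its call with RLE (1.10, adjusted p = 0.0883) and limma (1.25, adjusted p = 0.0991). With the replicate block 0 of the 10 genes were called, and Paox was -1.87 for LY6D and 1.18 for SCA1 and Odc1 -0.0444 for SCA1. The sample descriptions give all replicate 1 libraries the prefix HN6 and all replicate 2 libraries HN7, without saying what a prefix marks. Over 15 pairs of populations the deviations of same-numbered libraries from their population means correlated at -0.08 to 0.11, 1 of them over 0.1. These correlations used 2799 genes of mean log2 CPM of at least 5. With replicates this far apart, weak correlations do not show whether same-numbered libraries share an animal or day. The main tests treated the libraries as unpaired. With the replicate block 423 genes in all were called for LY6D and 245 for SCA1, against 379 and 185. Srm, Sms, Smox and Paox held 0 to 11 counts in their lowest libraries, and the part of depth in their spread was not tested: in LY6D+ SCA1int cells Paox had 927 and 28 counts in libraries of 19020868 and 16758380 counts. Having 2 libraries per population limits all within-level tests.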
